A study of Mus musculus with 24 samples.

Results

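The Apolipoprotein L genes of the mouse were examined in alveolar-like bone marrow-derived macrophages (BMDMs), as 9 genes of the 55421 in the count table. They were taken by symbol and identifier, and the family was selected on the levels of Apol7c and Gm8221, which were nearly lost in AhR-deficient BMDMs after LPS. The levels of these 2 genes in the LPS libraries are therefore a description, and no test is given for them there. Their levels in unstimulated BMDMs, and all values of the other 7 genes, were not named in the rule for that choice. The members and tests were, however, chosen with earlier results of these data known.

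Bone marrow came from C57BL/6J wildtype (WT) mice and from AhR KO/KO mice (B6.129-Ahr tm1Bra/J), which lack a functional aryl hydrocarbon receptor in every cell of the body from birth, so that the marrow itself developed without it. The animals were young adults of both sexes, matched for age and sex between genotypes. All cultures were grown with GM-CSF at 10 ng/ml and TGF-β at 2 ng/ml, and 6 of the 12 libraries of each genotype came from cells given LPS, a bacterial ligand of TLR4, at 97 EU/ml on day 6 for 24 h. The protocol ends with the Ca2+ ionophore A23187 at 5 µM for 10 min and names no culture without it. This gave 4 groups of 6 libraries: unstimulated WT, unstimulated AhR-deficient, LPS-stimulated WT and LPS-stimulated AhR-deficient. The libraries carry the numbers 17 to 40 and are named by them here, and the labels do not say which of them share an animal.

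Apolipoprotein L proteins are named for their first member, which was found on high-density lipoprotein particles in human plasma, but most of the family act inside cells and not as carriers of lipid. They hold amphipathic helices, bind phospholipids and can open or permeabilise membranes, and the human protein APOL1 kills trypanosomes in this way. The 9 genes examined here lie in 1 cluster in the mouse, the family grew by duplication, and many of its genes are induced by interferons and by ligands of Toll-like receptors. Apol7c is known from dendritic cells, where its product is recruited to phagosomes and damages their membrane so that antigen reaches the cytosol. Apol9a and Apol9b encode near-identical interferon-inducible proteins that bind phosphatidylethanolamine and have been linked to antiviral defence. Human APOL6 has been described as a protein that promotes cell death when overexpressed.

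All 9 genes lie on chromosome 15 of mm10, within 712 kb. Apol7c (ENSMUSG00000044309, chr15:77524852-77533316, minus strand) is protein-coding, with 5 exons after merging and 2060 bases of exon. Gm8221 (ENSMUSG00000095704, chr15:77621834-77626637, plus strand, 1110 bases) is annotated as an unprocessed pseudogene. Its transcript aligned to that of Apol7c over all of its 1110 bases with 97.0% identity, and Apol7c aligned to Apol7a with 91.8% identity over 1955 bases. Apol9a (ENSMUSG00000057346, chr15:77403789-77411135, minus strand) and Apol9b (ENSMUSG00000068246, chr15:77729039-77736382, plus strand) lie on opposite strands, and their most alike transcripts had 98.5% identity over 1529 bases. Apol10b (ENSMUSG00000050014, chr15:77583819-77596125, minus strand) stands between Apol7c and Gm8221. The others are Apol6 (ENSMUSG00000033576, chr15:77044729-77057106, plus strand), Apol7a (ENSMUSG00000010601, chr15:77388219-77399110, minus strand), Apol7e (ENSMUSG00000071716, chr15:77698857-77719285, plus strand) and Apol8 (ENSMUSG00000056656, chr15:77747798-77757003, minus strand).

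The promoter windows are shown so that the sequence at the annotated starts can be set beside the levels. Whether it bears on them was not tested. Each window is 300 bases of RefSeq sequence on GRCm38.p6, 250 before and 50 after the annotated start, written 5′ to 3′ on the strand of the gene. Windows were given for 7 of the 9 members, without Apol6 and Gm8221, and Apol9a and Apol9b each had more than 1. The 4 motifs below were searched on both strands, with overlapping matches kept. They were GCGTG, the core bound by AhR with ARNT, the interferon-stimulated response element (TTTC, any 2 bases, TTTC), TTCNNNGAA, bound by STAT dimers, and the NF-κB site (GGGA, any base, TTTCC). Matches are in capitals.
Apol7c, chr15:77533266-77533565, minus strand: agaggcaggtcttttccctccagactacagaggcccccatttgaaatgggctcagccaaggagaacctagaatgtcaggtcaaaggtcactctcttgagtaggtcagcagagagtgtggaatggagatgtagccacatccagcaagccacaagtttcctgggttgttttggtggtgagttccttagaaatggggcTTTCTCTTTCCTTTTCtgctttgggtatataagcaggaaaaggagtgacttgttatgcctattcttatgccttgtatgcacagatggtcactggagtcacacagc
Apol7e, chr15:77698639-77698938, plus strand: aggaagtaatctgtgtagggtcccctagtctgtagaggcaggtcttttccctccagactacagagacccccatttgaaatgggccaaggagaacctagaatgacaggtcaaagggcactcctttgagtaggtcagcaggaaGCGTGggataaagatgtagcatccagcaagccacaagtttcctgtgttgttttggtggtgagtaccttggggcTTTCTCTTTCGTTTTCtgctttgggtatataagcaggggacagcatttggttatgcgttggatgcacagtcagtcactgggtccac
Apol9a, chr15:77411031-77411330, minus strand: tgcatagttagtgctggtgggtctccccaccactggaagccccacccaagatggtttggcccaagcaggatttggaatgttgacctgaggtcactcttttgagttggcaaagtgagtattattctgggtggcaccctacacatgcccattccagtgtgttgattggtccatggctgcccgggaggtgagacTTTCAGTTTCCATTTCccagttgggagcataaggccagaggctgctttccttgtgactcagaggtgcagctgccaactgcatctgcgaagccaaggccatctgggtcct
Apol9b, chr15:77728822-77729121, plus strand: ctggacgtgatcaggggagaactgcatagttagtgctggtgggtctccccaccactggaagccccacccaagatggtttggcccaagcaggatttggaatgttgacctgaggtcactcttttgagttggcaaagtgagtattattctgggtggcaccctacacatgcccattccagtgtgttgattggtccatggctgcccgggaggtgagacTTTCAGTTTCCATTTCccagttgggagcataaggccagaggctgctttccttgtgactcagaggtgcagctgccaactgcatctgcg
Apol10b, chr15:77596076-77596375, minus strand: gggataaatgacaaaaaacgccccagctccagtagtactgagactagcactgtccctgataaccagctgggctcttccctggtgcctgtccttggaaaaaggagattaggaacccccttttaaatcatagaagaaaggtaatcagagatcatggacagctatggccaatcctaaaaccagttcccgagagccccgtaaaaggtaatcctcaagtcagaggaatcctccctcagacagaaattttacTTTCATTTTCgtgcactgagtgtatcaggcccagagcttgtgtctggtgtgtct
Of the 7 members with a window, 5 held the interferon-stimulated response element, a motif found in 3.44% of all 32851 windows in the table. Apol7c held TTTCTCTTTC from base -55 to -46 and TTTCCTTTTC from base -49 to -40, which overlap, with the annotated start counted as 0. The windows of Apol9a and Apol9b shared 278 bases with 100% identity, including the overlapping pair TTTCAGTTTC and TTTCCATTTC. Apol10b held the match nearest to its start, TTTCATTTTC from base -4 to 5. GCGTG was matched in the window of 1 member, Apol7e, at base -109, against 32.4% of all windows. Apol7c and Apol7e had 91.4% identity over 267 bases of their windows. The windows of Apol7a and Apol8 held none of the motifs, and TTCNNNGAA (8.30% of all windows) and the NF-κB site (0.411%) were matched in no member. These are matches of letters in short windows and do not show that a factor binds there.

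The deposited values are whole-number counts of read pairs per gene, between 45106052 and 76992663 per library. Levels are given as CPM, the counts relative to the library's total in units of 1000000, scaled by TMM factors, as mean ± SD over 6 libraries. Levels of different genes are compared as CPM per kb of merged exon. The shares within a pair of genes are of counts and are not scaled by length. Only uniquely aligned pairs were counted, so reads from a stretch that 2 copies share went to neither. Of the 100-base windows along the transcripts, none was shared with another gene in Apol6, Apol8 and Apol10b. Shared were 6.19% in Apol7c, 8.80% in Gm8221, 11.7% in Apol9a, 36.7% in Apol9b and 60.3% in Apol7e. Apol9a and Apol9b shared the same 685 windows with each other, of 5858 in Apol9a and 1869 in Apol9b. The windows of Apol9a include a long alternative transcript, which lowers its percentage. The levels of Apol7e, Apol9a and Apol9b may therefore be underestimates, and those of Gm8221 and Apol7c may hold some misplaced pairs. Apol6 shares exon bases with Mb, and Apol7e with Gm36329, in both cases on the other strand, and the counting used strand.

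Ahr itself was detected in every library, at 28.3 ± 12.2 CPM in WT and 7.42 ± 2.39 CPM in AhR-deficient BMDMs without stimulation and at 16.8 ± 7.63 and 43.1 ± 16.2 CPM after LPS. Gene counts do not show whether the disrupted part is present, so these values do not check the genotype. Ahrr, a direct target of the receptor, was between 13.3 and 96.6 CPM in the 12 WT libraries and between 0 and 1.05 CPM in the 12 AhR-deficient libraries. The summed level of 7 macrophage markers lay between 11627 and 34179 CPM in all libraries. Of these 7, 0 were called between genotypes by edgeR, DESeq2 or limma-voom in either state, and in edgeR 4 had an unadjusted p of at most 0.05 without stimulation and 0 after LPS. A call also needed a change of at least 2-fold. Adgre1 was lower in unstimulated AhR-deficient BMDMs by less than that (log2 fold change -0.68, adjusted p = 0.0397, edgeR).

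Among the WT libraries, numbers 25 and 33 without stimulation and 29 and 37 after LPS stood below the rest of their groups for Apol7c, Gm8221, Flt3, Ccr7 and Zbtb46, and numbers 25 and 33 also for Ahr and Ahrr. One AhR-deficient library without stimulation, number 27, held all counts of Apol7c and Gm8221 in its group and most counts of Apol9a and Apol9b. Results of the family that rest on number 27 are given with and without it.

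Apol7c was present in every WT library and nearly absent from AhR-deficient BMDMs in both states. Without stimulation the WT libraries lay at 1.82, 7.77, 22.2, 27.5, 28.7 and 46.3 CPM (mean 22.4 ± 15.97). In unstimulated AhR-deficient BMDMs 5 of 6 libraries had no count, and number 27 had 12 counts or 0.133 CPM. The groups did not overlap, and Apol7c was lower in AhR-deficient BMDMs by a log2 fold change of -9.51 (SE 1.02, adjusted p = 1.1e-06, edgeR quasi-likelihood test). Apol7c and Gm8221 pass the filter on low counts only through WT BMDMs, where they are high, and in the edgeR fit without that filter their adjusted p was 1.2e-06 and 4.6e-05. Without library 27 the other 5 libraries, at 0 counts together, put the level at least 2245-fold lower, with 3 counts over the group as the floor.

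After LPS, the values that led to the choice of Apol7c, the WT libraries reached 87.5, 102, 353, 426, 509 and 530 CPM (mean 335 ± 196). The 6 AhR-deficient libraries held 35 counts in all, between 0 and 18 per library, at 0.121 ± 0.125 CPM, and 5 of them had at least 1 count. The ratio of the means was 2771, and the log2 fold change -11.43. Library 31 held 18 of these counts, and without it the ratio was 4515 and the log2 fold change -12.17. LPS-stimulated WT BMDMs had 14.9-fold the mean of unstimulated WT BMDMs, and the lowest LPS library lay above the highest unstimulated one. In AhR-deficient BMDMs the libraries of the 2 states overlapped.

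Gm8221, the pseudogene copy, had the same order at a lower level. In unstimulated WT BMDMs it lay between 0.409 and 4.38 CPM with a median of 3.33, and numbers 33 and 25 were again the lowest. In AhR-deficient BMDMs without stimulation its 8 counts were all in library 27, at 0.0886 CPM. It was lower in AhR-deficient BMDMs by a log2 fold change of -7.05 (SE 0.99, adjusted p = 3.7e-05, edgeR), and at least 281-fold lower without library 27. After LPS, again as values behind the choice, Gm8221 was at 8.54, 11.1, 69.7, 79.7, 121 and 138 CPM in WT and at 7 counts over the 6 AhR-deficient libraries, of which 5 were in library 23. The ratio of the means was 3039, and the log2 fold change was -11.44 with library 23 and -12.77 without it. WT BMDMs after LPS had 25.5-fold the mean of unstimulated WT BMDMs.

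Gm8221 was not a fixed share of the Apol7c counts. It took 12.8% ± 3.33 of the counts of both genes in unstimulated WT libraries and 15.2% ± 5.03 after LPS. Among the LPS libraries the share was 20.7% in number 22 (95% Wilson interval 20.3 to 21.1) and 9.81% in number 29 (9.13 to 10.5), intervals that cover counting error only.

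**Figure D1:**
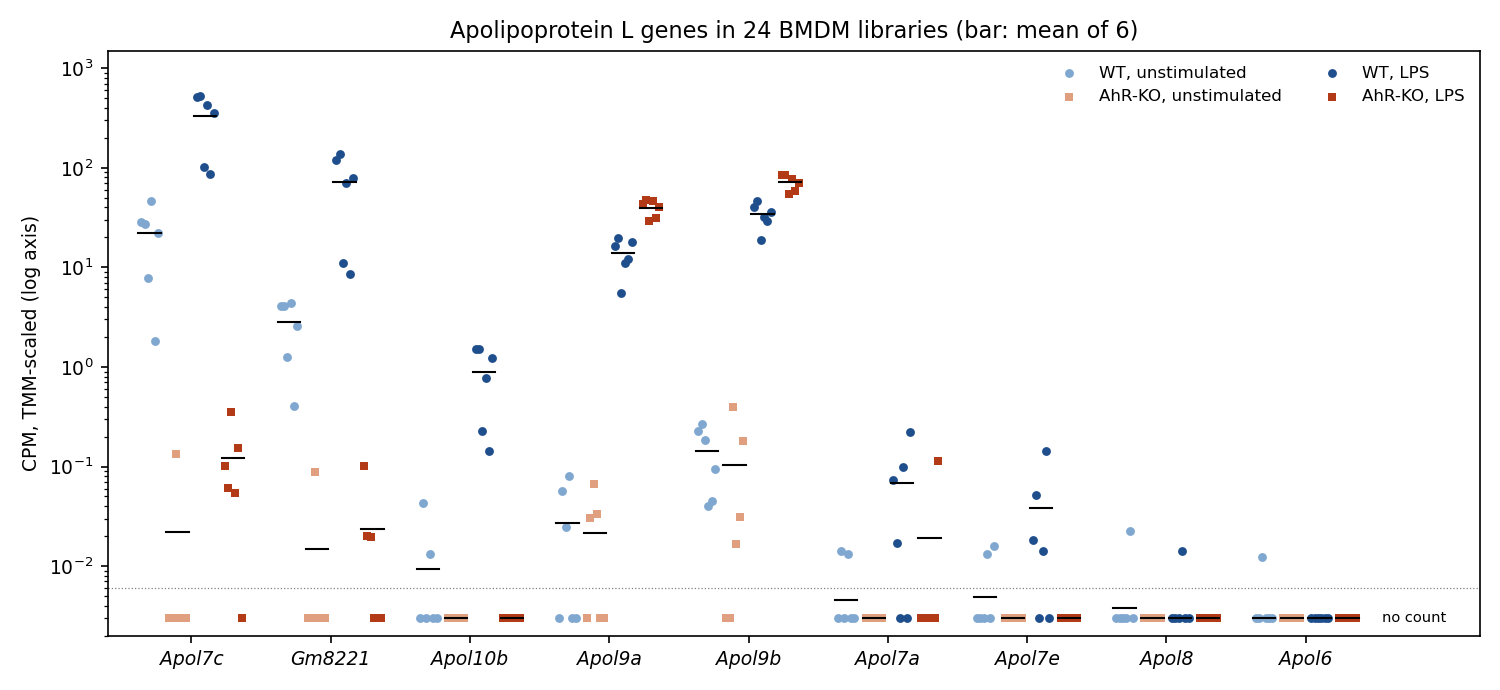
Level of each of the 9 genes in the 24 libraries, in TMM-scaled CPM on a log axis, with 4 groups of 6 side by side. Circles are WT and squares AhR-deficient libraries, light without stimulation and dark after LPS, bars are group means, and libraries without a count stand on the lowest line. The 12 AhR-deficient libraries of Apol7c are at or below 0.354 CPM and those of Apol10b are all without a count, while Apol9a and Apol9b are higher in every LPS library than in any unstimulated one.

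Apol10b, the gene between Apol7c and Gm8221, had counts in WT BMDMs alone. After LPS the WT libraries held 6, 14, 50, 54, 83 and 89 counts, or 0.899 ± 0.617 CPM, and the lowest were once more numbers 37 and 29. Unstimulated WT BMDMs had 4 counts in all, and the 12 AhR-deficient libraries had 0. After LPS the level was at least 88.8-fold lower in AhR-deficient than in WT BMDMs, with 3 counts over the 6 libraries as the floor. This gene did not pass the filter on low counts. In the edgeR fit without that filter the genotype difference after LPS had an adjusted p of 2.7e-04 over 29741 genes, of which 3.4% were called lower, and the rise with LPS in WT had an adjusted p of 1.8e-04, where 8.03% were called higher. Between genotypes without stimulation the same fit gave an adjusted p of 0.404.

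Apol9a and Apol9b had higher values in AhR-deficient than in WT BMDMs after LPS, and for Apol9a the difference passed the test. Both were near zero without stimulation in either genotype: Apol9a had 12 counts over the 6 WT and 10 over the 6 AhR-deficient libraries, and Apol9b had 62 and 51. Apol9a differed between genotypes in this state by a log2 fold change of -0.22 (SE 0.77) and Apol9b by -0.35 (SE 0.65), and neither passed the test (edgeR adjusted p = 1 for both). Of the counts in AhR-deficient BMDMs, library 27 held 36 of the 51 of Apol9b and 6 of the 10 of Apol9a. Without it the log2 fold change was -1.56 for Apol9b (SE 0.64, adjusted p = 0.222, edgeR) and -1.005 for Apol9a (SE 0.86, adjusted p = 0.876), and neither passed the test. Without unstimulated WT library 26 the value of Apol9a turned to 0.42 (adjusted p = 0.952).

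After LPS, Apol9a was at 5.53, 11.2, 12.2, 16.5, 18.1 and 19.8 CPM in WT and at 29.1, 31.2, 40.7, 43.4, 46.3 and 47.7 CPM in AhR-deficient BMDMs. The groups did not overlap. Apol9a rose by a log2 fold change of 1.52 in AhR-deficient over WT BMDMs (SE 0.45, adjusted p = 0.026, edgeR). This call was near its limit: with each library left out in turn the adjusted p lay between 0.0179 and 0.0579, and 19 of 24 such fits called the gene. It was lost without LPS-stimulated AhR-deficient library 23 (1.49, adjusted p = 0.052), 24 (1.46, adjusted p = 0.0579) or 32 (1.47, adjusted p = 0.0503), and without LPS-stimulated WT library 29 (1.35, adjusted p = 0.0575) or 30 (1.46, adjusted p = 0.0543).

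Apol9b after LPS was at 18.6, 29.2, 32.3, 36.4, 40.6 and 46.8 CPM in WT and at 54.2, 58.4, 70.4, 76.7, 84.7 and 85.0 CPM in AhR-deficient BMDMs, so that these groups did not overlap either. Its log2 fold change was 1.07 (SE 0.52), and it did not pass the edgeR test (adjusted p = 0.214). With limma-voom the same comparison gave 1.11 (adjusted p = 0.0018) and with only the 12 LPS libraries in the edgeR fit 1.103 (adjusted p = 0.0053), and both called it.

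**Figure D2:**
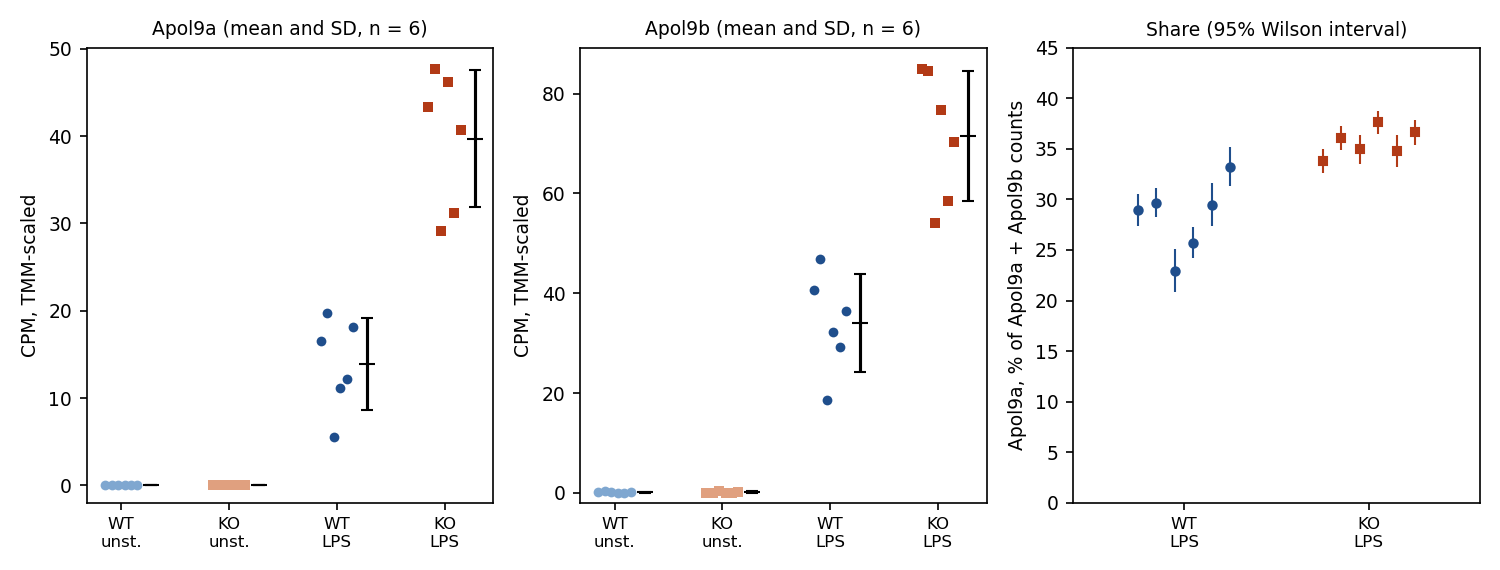
Apol9a and Apol9b in TMM-scaled CPM per library in the 4 groups (left and middle; bars, mean and SD of 6), and Apol9a as a percentage of the counts of both genes in the 12 LPS libraries (right; bars, 95% Wilson intervals for counting error only). After LPS every AhR-deficient library lies above every WT library in all 3 plots, with shares of 33.8% to 37.6% against 22.9% to 33.2%.

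The split of the uniquely aligned counts within the Apol9 pair also differed between genotypes after LPS. The long alternative transcript of Apol9a can add to its counts, so this split need not be the balance of the 2 genes. Which transcripts were used was not tested. Apol9a made up 28.3% ± 3.57 of the counts of both genes in WT and 35.6% ± 1.39 in AhR-deficient BMDMs (n = 6 each), on totals of 1480 to 6817 counts per library. The difference of 7.33 percentage points had p = 0.00216 in a two-sided exact permutation test, the smallest value that 6 against 6 libraries can give, and an adjusted p of 0.00866 over the 4 comparisons made. With each library left out the difference stayed between 6.25 and 8.32 points. Without stimulation the share rests on 2 to 42 counts per library, with 1 AhR-deficient library without any, and the other 3 comparisons had adjusted exact permutation p of 0.479, 0.479 and 0.994.

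LPS raised both Apol9 genes from near zero in either genotype. In WT BMDMs Apol9a rose 517-fold by the means (log2 fold change 8.82, SE 0.66, adjusted p = 2.8e-10, edgeR) and Apol9b 237-fold (7.83, SE 0.71, adjusted p = 5.4e-09). In AhR-deficient BMDMs Apol9a rose 1836-fold (10.55, SE 0.70, adjusted p = 1.8e-11) and Apol9b 683-fold (9.25, SE 0.75, adjusted p = 4.9e-10). Both genes pass the filter on low counts only through the LPS groups, and in the edgeR fit without that filter the highest of these 4 adjusted p was 5.7e-09. These folds rest on very few unstimulated counts, and those in AhR-deficient BMDMs rest on library 27, without which the log2 fold change was 11.33 for Apol9a (SE 0.77) and 10.46 for Apol9b (SE 0.72). In WT BMDMs the log2 fold change of Apol9a lay between 8.55 and 9.45 with each library left out. The interaction of genotype and LPS, which tests whether the response differed between genotypes, was 1.73 (SE 0.93, adjusted p = 0.465) for Apol9a and 1.42 (SE 0.83, adjusted p = 0.541) for Apol9b, and neither passed the edgeR test. Both values moved with library 27, without which the interaction was 2.52 for Apol9a (SE 0.98, adjusted p = 0.206) and 2.63 for Apol9b (SE 0.76, adjusted p = 0.0551, edgeR). Without unstimulated WT library 26 that of Apol9a was 1.09 (adjusted p = 0.852). With limma-voom and all libraries the interaction of Apol9b was 2.54 (adjusted p = 0.151). For Apol7c the interaction was -1.92 with library 27 and 1.92 without it, and for Gm8221 -4.39 and -1.09, given as values without a test.

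Over the family, genes counted as called reached an adjusted p of 0.05 or less together with a change of 2-fold or more, and only 4 of the 9 members were tested, since Apol6, Apol7a, Apol7e, Apol8 and Apol10b were below the filter. Apol7c and Gm8221 were called lower without stimulation, where 3.57% of the 16593 tested genes were. After LPS, leaving out those 2 genes, Apol9a was called higher, where 2.17% of genes were called higher and 6.19% lower. Apol9a and Apol9b were called higher with LPS in WT, where 13.2% were, and in AhR-deficient BMDMs, where 15.1% were. Apol7c and Gm8221 pass the filter only through WT and the Apol9 pair only through LPS, where they are high, so these counts are a description. For the interaction, 4.3% of all genes were called but 0 of Apol9a and Apol9b by edgeR, DESeq2 or limma-voom, and 0 had an unadjusted p of at most 0.05 in edgeR.

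The remaining members were at the limit of detection. Apol7a had 2 counts in unstimulated WT, 21 in LPS-stimulated WT, spread over 4 libraries, and 6 in LPS-stimulated AhR-deficient BMDMs, all in library 40. Apol7e had 2 counts in unstimulated WT and 11 in LPS-stimulated WT BMDMs and none in the 12 AhR-deficient libraries. Apol6 had 1 count and Apol8 had 2 counts in all 24 libraries, all in WT. A group of 6 libraries without a count allows up to 3 counts over the group, or between 0.00733 and 0.0101 CPM.

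Other genes of the name were scarce too. Of 6 further genes, Apol10a and Apol11a had 0 counts in all libraries, Apol11b had 1 in each of 2 groups, and Apol7b had 21 counts, all in LPS-stimulated WT BMDMs. Apol7e shares most of its transcript windows with Apol7b. Apol7d, annotated on another chromosome, had between 1 and 64 counts per group, and Apold1, an endothelial gene with a related domain, between 20 and 75. Apold1 was the only one of these tested, and it was not called in any comparison.

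The make-up of the family per kb of exon differed between the 4 groups. In unstimulated WT BMDMs Apol7c made up 77.8% ± 5.596 and Gm8221 21.02% ± 4.70 of the summed CPM per kb of the 9 genes, a sum of 13.5 ± 9.18. After LPS the WT sum was 248 ± 149 CPM per kb, with 65.8% ± 3.91 from Apol7c, 22.1% ± 7.90 from Gm8221, 10.6% ± 7.09 from Apol9b and 1.27% ± 0.882 from Apol9a. In LPS-stimulated AhR-deficient BMDMs the sum was 46.1 ± 8.40, with 85.3% ± 0.664 from Apol9b and 14.5% ± 0.769 from Apol9a. In unstimulated AhR-deficient BMDMs the sum was 0.0852 ± 0.146, and 0.0273 ± 0.0411 without library 27.

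The order of the levels per kb in LPS-stimulated WT BMDMs was Apol7c (162 ± 95.3), Gm8221 (64.3 ± 48.6), Apol9b (18.7 ± 5.37), Apol9a (2.33 ± 0.887) and Apol10b (0.387 ± 0.265). The ranges of Apol7c (42.5 to 257) and Gm8221 (7.70 to 125) overlapped, but within every library Apol7c was the higher. Those of Gm8221 and Apol9b (10.2 to 25.7) overlapped too, with Apol9b the higher in libraries 29 and 37 and Gm8221 in the others. Apol9b, Apol9a and Apol10b were each separate from the next. The exon length of Apol9a includes a long alternative transcript, which lowers its value per kb.

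**Figure D3:**
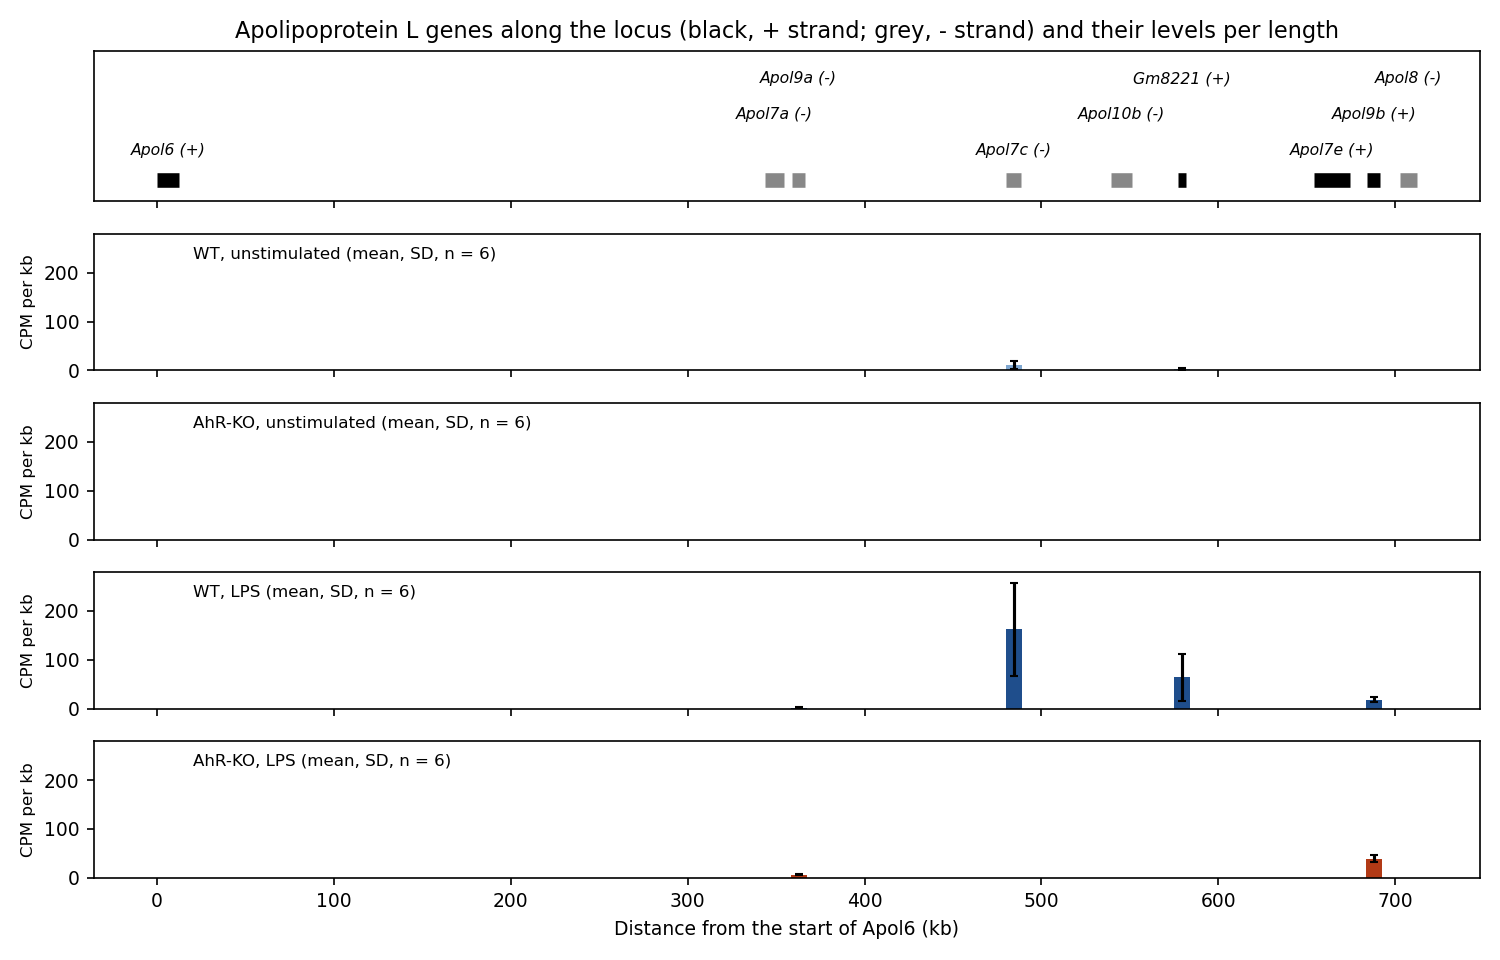
Position of the 9 genes along the cluster as distance in kb from the start of Apol6 (top), and the mean level of each in CPM per kb in the 4 groups of 6 libraries (SD drawn for means above 1 CPM per kb). Apol7c and Gm8221 carry the largest bars in LPS-stimulated WT BMDMs, at 162 and 64.3 CPM per kb, and Apol9b carries the largest in LPS-stimulated AhR-deficient BMDMs, at 39.3 CPM per kb.

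Genes beside the members were examined in the same way. Of 44 other annotated genes within 250 kb of the cluster, 14 were tested, and 0 were called between genotypes by edgeR or limma-voom in either state, while DESeq2 called 1 without stimulation and 0 after LPS. At an unadjusted p of at most 0.05 edgeR had 1 of them without stimulation and 0 after LPS. Their median log2 fold change was -0.01 without stimulation and 0.14 after LPS, against -0.01 and -0.05 over all genes tested.

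The runs of library numbers (17 to 24, 25 to 32 and 33 to 40) each held 2 libraries of every group, and the labels do not say whether they were handled apart. On the log2(CPM + 0.5) scale, which understates changes of low genes, the genotype difference of Apol7c without stimulation was -5.84, -5.13 and -3.86 in the 3 runs and that of Gm8221 -3.19, -2.44 and -1.74. After LPS, Apol9a differed by 1.31, 2.15 and 1.23, Apol9b by 0.95, 1.38 and 0.97 and Apol10b by -2.01, -0.94 and -1.08. The direction was the same in all 3 runs for each of these.

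The pattern over the 24 libraries separated the members into 2 pairs. On the same scale, Pearson's r was 0.974 between Apol7c and Gm8221 and 0.994 between Apol9a and Apol9b, but 0.125 between Apol7c and Apol9a. These are descriptions of 24 libraries in 4 groups, and a gene that differs between the groups alike has a high r. Apol7c and Gm8221 were chosen together for their loss after LPS, so their high r is in part fixed by that choice. Among 12710 genes with a mean of at least 1 CPM, those most like Apol7c were Ocln (r = 0.978), a tight junction protein, Flt3 (0.973), the receptor of the growth factor that drives dendritic cell development, and Ptk6 (0.972), a tyrosine kinase known from epithelia. Those most like Gm8221 were Ptk6 (0.991), Flt3 (0.990) and Tmem176a (0.982). The nearest to Apol9a were Astn2 (0.994), Bdh2 (0.993) and Ifit1bl1 (0.992), and to Apol9b Gm16685 (0.996), Tank (0.992) and Ifi205 (0.991), of which Ifit1bl1 and Ifi205 belong to interferon-inducible families.

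Flt3 was low in the same WT libraries as Apol7c, as were Ccr7 and Zbtb46. Without stimulation it was at 0.113 CPM in number 33 and 0.452 in number 25 and between 1.45 and 2.65 in the other 4 WT libraries. After LPS it was at 3.98 CPM in number 37 and 9.21 in number 29 and between 14.1 and 29.6 in the other 4. In AhR-deficient BMDMs it did not exceed 0.141 CPM.

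**Figure D4:**
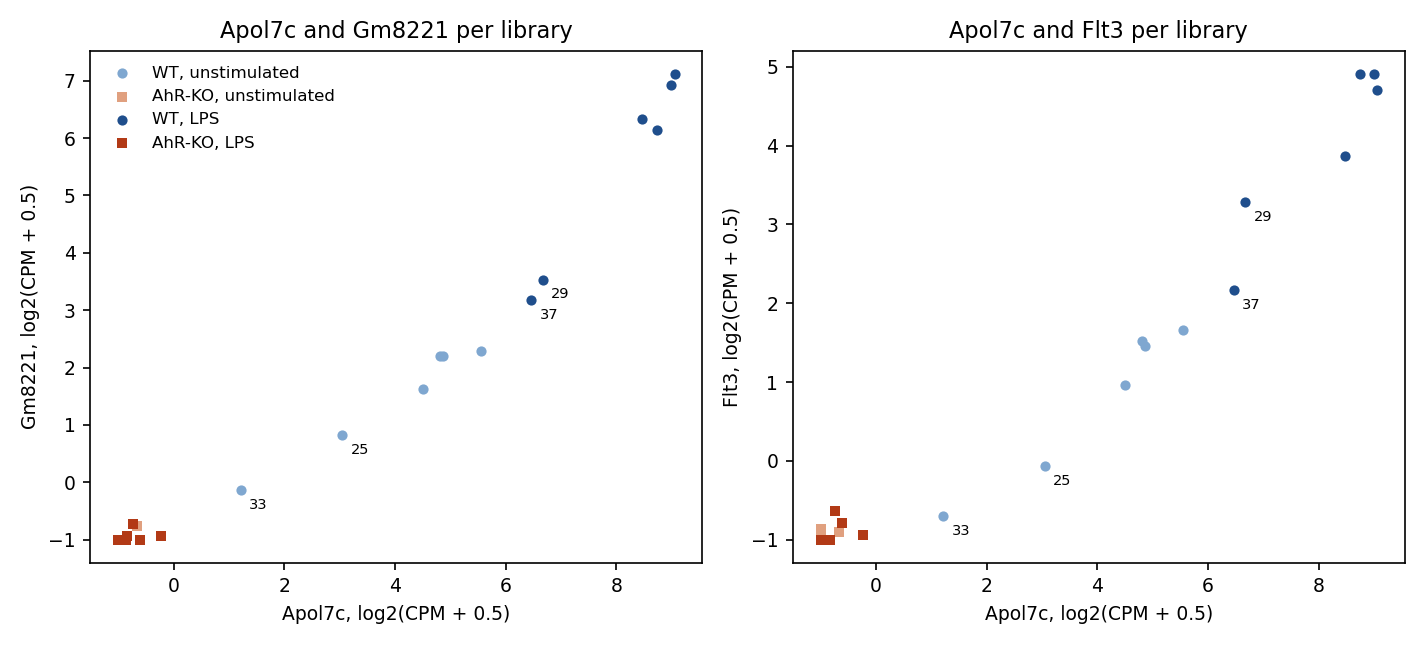
Apol7c against Gm8221 (left) and against Flt3 (right), 1 point per library in log2(CPM + 0.5), circles for WT and squares for AhR-deficient BMDMs, light without stimulation and dark after LPS. The WT libraries 33 and 25 without stimulation and 37 and 29 after LPS, marked by number, lie below the rest of their groups on both axes, and the AhR-deficient libraries gather at the lower left.

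Markers of other cell types moved with genotype in the same libraries. Of 15 tested dendritic cell markers, 6 were called lower and 3 higher in unstimulated AhR-deficient BMDMs (median log2 fold change -0.81), and 8 lower and 1 higher after LPS (median -1.25). The 3 called higher without stimulation were Ccl17 (2.38, adjusted p = 7.2e-05, edgeR), a chemokine, Clec9a (1.34, adjusted p = 0.0046), a receptor of conventional dendritic cells for dead cells, and Batf3 (1.23, adjusted p = 7.8e-04), a factor they need to develop, and the 1 after LPS was Il12b (1.74). That call rests on library 31, with 467 CPM against 57.7 to 121 in the other 5 of its group. Without it Il12b had 0.86 (adjusted p = 0.191, edgeR), and 10 of the 15 were called lower after LPS (median -1.79), an alternative chosen after seeing the data. Flt3 fell by 6.32 and 8.86 on the log2 scale (SE 0.94 and 0.98, adjusted p = 7.1e-05 and 1.0e-06, edgeR), and Cd207, langerin of Langerhans cells, fell by 9.67 without stimulation (SE 1.08, adjusted p = 1.1e-05) and had 0 counts in LPS-stimulated AhR-deficient BMDMs. Unlike Flt3, Cd207 was higher in WT without stimulation (35.4 ± 12.8 CPM) than after LPS (2.93 ± 3.94 CPM), whereas Apol7c was higher after LPS. Zbtb46, a factor of conventional dendritic cells, was at 3.42 ± 1.66 CPM in WT and 3.44 ± 1.14 CPM in AhR-deficient BMDMs without stimulation. After LPS it was at 11.7 ± 5.31 CPM in WT and 3.42 ± 2.197 CPM in AhR-deficient BMDMs and was called lower (log2 fold change -1.77, SE 0.44, adjusted p = 0.0071, edgeR). The summed level of the 16 dendritic cell markers lay between 1743 and 2352 CPM in unstimulated WT, 3293 and 6584 in unstimulated AhR-deficient, 5966 and 12450 in LPS-stimulated WT and 4764 and 12587 in LPS-stimulated AhR-deficient BMDMs.

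Neutrophil markers were lower too, with 8 of 9 tested called lower without stimulation and 6 after LPS, with Camp (-3.57) and Elane (-3.50) largest without stimulation and Elane (-6.74) and Ltf (-3.72) after LPS. Their summed level lay between 1691 and 12716 CPM in unstimulated WT and 259 and 809 CPM in unstimulated AhR-deficient BMDMs, and between 728 and 8436 and 141 and 1020 CPM after LPS. Of 7 tested mast cell markers 4 were called lower in each state, Hdc (-3.13), Mcpt8 (-2.41), Kit (-2.19) and Cpa3 (-2.05) without stimulation and Mcpt8 (-2.43), Cpa3 (-2.17), Ms4a2 (-1.98) and Kit (-1.85) after LPS, with summed levels of 7.01 to 23.6 CPM in WT and 2.33 to 4.56 CPM in AhR-deficient BMDMs without stimulation and 331 to 509 and 534 to 836 CPM after LPS. Of 3 tested lymphoid markers, 1 was called lower without stimulation, Cd7, and 1 higher after LPS, Klrb1c (1.95). The summed lymphoid level was between 13.2 and 54.8 CPM in unstimulated WT and 7.32 and 31.2 CPM in unstimulated AhR-deficient BMDMs, and between 32.5 and 100.1 and 70.8 and 259 CPM after LPS. Of 7 alveolar macrophage markers 1 was called higher in each state, Siglecf and Car4. The part of these cell types in the levels of the Apolipoprotein L genes was not tested, and in bulk libraries fewer cells of a type and less RNA per cell cannot be told apart.

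Interferon-stimulated genes were set beside the Apol9 pair as the wider programme these genes belong to. All 24 genes of the list rose with LPS in WT (median log2 fold change 3.999, against 0.03 over all genes) and in AhR-deficient BMDMs (6.28, against -0.03). Between genotypes 6 of 24 were lower in unstimulated AhR-deficient BMDMs and 0 higher (median -0.85), among them Oasl1 (-2.34, adjusted p = 0.0108, edgeR) and Usp18 (-2.17, adjusted p = 4.9e-04). After LPS 6 were higher and 0 lower (median 0.89), led by the antiviral GTPase Mx1 (1.88, adjusted p = 0.012) and by Ifi205 (1.86, adjusted p = 0.0078). The interaction was called for 11 of the 24, all positive (median 1.93). Library 27 stood apart here too, with 24.8 CPM of Isg15 against 4.70 to 7.77 and 13.5 CPM of Ifit1 against 0.181 to 3.44 in the other 5 libraries of its group. Without it, an alternative chosen after seeing the data, 13 of the 24 were called lower without stimulation (median -1.63), 9 higher after LPS (median 0.89) and 17 for the interaction (median 2.46). Apol9a, at 1.52 after LPS, lay among the higher values of this list, and Apol9b, at 1.07, nearer to its median. The 4 tested apolipoproteins of lipoprotein particles, of 14 in the list, had 0 calls between genotypes by edgeR, DESeq2 or limma-voom in either state, and in edgeR 1 had an unadjusted p of at most 0.05 without stimulation and 0 after LPS.

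**Figure D5:**
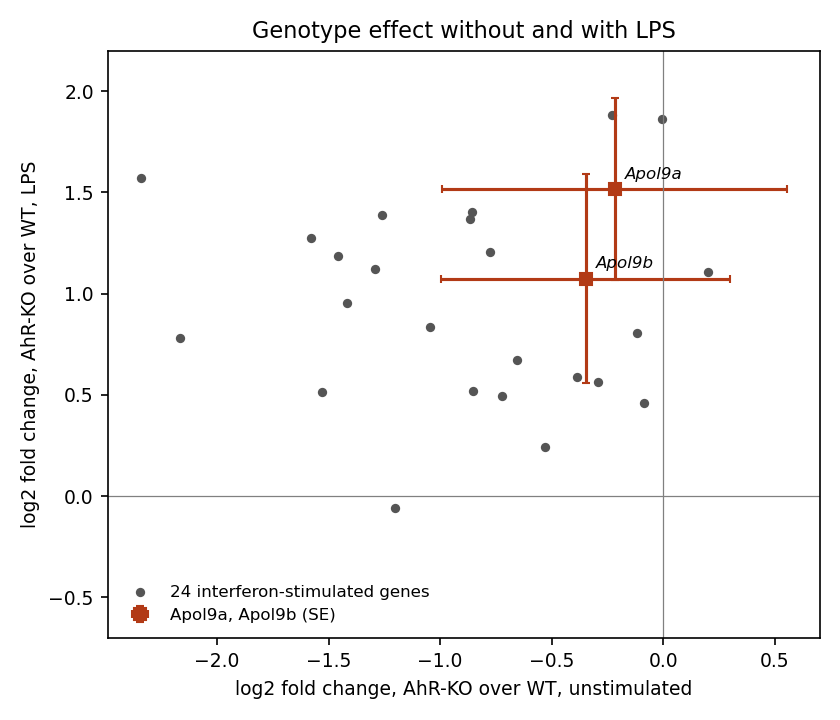
log2 fold change of AhR-deficient over WT BMDMs without stimulation (horizontal) and after LPS (vertical) for 24 interferon-stimulated genes (grey circles) and for Apol9a and Apol9b (red squares, with SE). Of the 24 genes, 23 lie below 0 without stimulation and 23 above 0 after LPS, with Apol9a at -0.22 and 1.52 and Apol9b at -0.35 and 1.07. The horizontal values of these 2 rest on 10 to 62 counts per group and did not pass the test, and that of Apol9a was 0.42 without library 26.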

How the data were processed

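RNA was sequenced as polyA-selected, strand-specific libraries from the 4 groups of BMDMs. The authors demultiplexed with bcl2fastq 2.20.0, aligned read pairs to mm10 with GSNAP and deposited counts of uniquely aligned fragments per gene of Ensembl release 98, made with featureCounts 2.0.1 as reverse-stranded and leaving out fragments over several genes. The versions are those in the submitters' processing notes. Depth was 45106052 to 76992663 counts per library, and the biological coefficient of variation was 49.1%. The 92 spike-in sequences, with 1 count in all, were left out. Symbols came from GENCODE M21, whose coordinates equal those in the table for all 9 members, and promoter windows came from RefSeq on GRCm38.p6.

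All 24 libraries entered 1 fit in edgeR 4.0.16 under R 4.3.3 with TMM factors, filterByExpr (16593 genes) and the robust quasi-likelihood test, and p-values were adjusted by Benjamini and Hochberg over all tested genes. A call needed an adjusted p of 0.05 or less and, except for the interaction, a change of 2-fold or more. The study's methods used DESeq2, which was an alternative here (version 1.42.0), as were limma-voom (3.58.1), other scalings and filters, run or length slope as covariates, the 12 libraries compared, no minimum fold change, and each library left out. The tests were checked on simulated counts. Python 3.11.15 with numpy 2.4.6, pandas 2.3.3, scipy 1.17.1 and matplotlib 3.10.9 gave shares, exact tests and plots.

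Members, lists, motifs and tests were chosen with earlier results of these data known. Named were all members, the 3 genes most like each tested member, and the 2 called genes with the largest change per list and genotype comparison with a mean of at least 1 CPM. Adgre1, Zbtb46, Klrb1c, Ccl17, Clec9a, Batf3, Il12b, Mcpt8, Ms4a2, Cpa3 without stimulation, Isg15, Ifit1, Ccr7 and Ahrr were named after their values were seen. The study gives 6 animals per group from a single experiment, but the labels do not tie libraries of different groups to the same animal. Protein sequences were not used here.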

Additional observations from a re-analysis of the deposited data

Results flagged for a closer look

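Of 16 groups of 6 libraries checked (the 4 tested members in 4 groups), 3 held a library far from the others by Dixon's test at the 95% level. The usual rate of about 1 flag in 20 by chance does not hold for groups at the count floor. Where 5 libraries have 0 counts, as for Apol7c and Gm8221 below, any count in the other library is flagged. These flags are therefore a description. Library 27, unstimulated and AhR-deficient, had 0.133 CPM of Apol7c (12 counts) and 0.0886 CPM of Gm8221 (8 counts), while the other 5 libraries of that group had 0 counts of either. The same library had the highest Ccr7, Isg15 and Ifit1 of its group, at 4.71, 24.8 and 13.5 CPM, and 0.421 CPM of Ahrr, within the range of 0.113 to 1.05 CPM of its group. Library 23, LPS-stimulated and AhR-deficient, had 0.101 CPM of Gm8221 (5 counts), against at most 0.0202 CPM in the other 5. The fold changes without these libraries are given beside those with them.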

How the results depend on the processing

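Apol7c and Gm8221 were called lower without stimulation under all 10 alternatives tried for that comparison and with each of the 24 libraries left out, and Apol9a and Apol9b were called higher with LPS in both genotypes under all that were run, but in the fits with a filter these members pass it only through WT or the LPS groups, where they are high. The call between genotypes after LPS was the one that moved. Leaving out Apol7c and Gm8221, for which no test is given there, 1 member was called, but 0 with library totals instead of TMM (Apol9a 1.31, adjusted p = 0.0683), 2 with limma-voom (Apol9a and Apol9b), 2 without a filter on low counts (Apol9a and Apol10b), 2 with the length slope as a covariate (Apol9b 1.07, adjusted p = 0.0111) and 2 with only the 12 libraries compared (Apol9a and Apol9b). With each library left out it was 0 to 2, and 0 without WT library 29 or 30. Leaving out a library lowers the filter's group size, so that Apol10b was tested in 19 of these 24 fits. It passed the filter there only through LPS-stimulated WT, the group where it is high, so its calls are no support for a difference, and they make up the counts of 2. The adjusted p of Apol9a over these alternatives, leaving out a library aside, lay between 5.8e-05 and 0.0683 and that of Apol9b between 0.0018 and 0.343.

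Values without a test that changed sign were Gm8221 with LPS in AhR-deficient BMDMs, 0.28 and then -0.15 with library totals and -1.05 without library 23 (range with each library left out, -1.05 to 3.58), and the interaction of Apol7c, which was between -2.67 and 1.92. Both rest on a few counts. The Apol9a share with LPS in WT differed by 9.14 to 22.5 percentage points with each library left out, and without library 26 it passed the exact permutation test (22.5, adjusted p = 0.00433).

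No paired analysis was possible because the labels give each library a number of its own. Counts below 3 over a group set the limit for Apol6, Apol7e, Apol8 and Apol10b, and the unstimulated Apol9 levels rest on 10 to 62 counts per group.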
